A study of Mus musculus with 8 samples.

Results

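Cornified envelope and squamous differentiation genes encode the proteins with which stratified epithelium, such as that of skin and esophagus, builds its outer layers. The set held 41 mouse genes, taken by gene symbol, older or current, with keratins left out. Of these, 37 had at least 1 probe on the array, 48 probes in all, out of 25697 probes and 16593 named genes. No probe was named here for Flg, Crct1, Dsp and Evpl. The genes were measured in total RNA from the colon of C57BL/6 mice with Illumina expression bead arrays, in 4 groups of 2 arrays each. The groups were normal colon of wild-type mice, normal colon of mice labelled caspase-12 deficient, colon tumors of wild-type mice, and colon tumors of mice labelled caspase-12 deficient. They are called wild-type and deficient normal colon and wild-type and deficient tumors below. The sources used here do not give how the tumors arose, the age of the mice or how caspase-12 was removed. No label states that both arrays of a group come from different animals. The p-values therefore reflect the spread between 2 samples of a group, which may be technical. This spread was pooled over the 4 groups, so a wide pair in any group affects each comparison.

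In stratified epithelium, basal cells that carry the transcription factor p63 divide, and their daughters move outwards and differentiate. In the upper layers, transglutaminases cross-link envelope proteins such as loricrin, involucrin and the small proline-rich proteins beneath the cell membrane. Modified desmosomes hold the dead cells together, and kallikrein proteases cut these contacts when the cells are shed. Normal colon is lined by a single layer of columnar cells and has no cornified layer, although single members of these families, such as plakophilins and some small proline-rich genes, are also active in simple epithelium.

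Values are normalized log2 intensities. Array values are given as replicate 1, then replicate 2. A detection p under 0.01 marked a probe as above background, and the lowest values above background lay between 6.37 and 6.91 log2 units. Levels of different probes cannot be set against each other. Where a gene had several probes, the tested probe with the highest mean stood for it. Of the 37 genes, 31 were tested, because their probe was above background on at least 2 of the 8 arrays. For 6 of the 31 (Hrnr, Sprr1b, Sprr3, Lce1c, Serpinb12 and Sbsn) the deficient tumors were the only arrays above background. These 6 reached the test through the group in which they were high. Rptn, Lce3c, Dsg3, Perp, Tgm1, Serpinb3a, Krtdap, Calm4, Lgals7, Trp63 and Grhl3 had only 1 array above background outside the deficient tumors. They too passed the filter only with the help of a deficient tumor. Counts over the tested genes are therefore given as descriptions.

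From 43.7% to 49.1% of probes rose above background per array, and mean intensities lay between 1112.5 and 1181.5. Casp12, the gene named in the genotype labels, read between 5.73 and 7.20 on the 8 arrays, above background on 0 of 4 wild-type and 2 of 4 deficient arrays. Its probe does not check the genotype here, because the deleted stretch is not given in the sources used. Replicates correlated at 0.976 in each normal group, and tumor replicates at 0.946 in wild-type and 0.938 in deficient mice, across probes, which are not independent replicates. All 15 colon epithelium markers with a probe were above background on the 4 normal arrays and on both wild-type tumors. On the deficient tumors 12 (replicate 1) and 14 (replicate 2) were. Single libraries stood apart. On deficient tumor 1, 12 of 14 skeletal muscle and 10 of 16 hair and melanocyte genes were above background. On deficient tumor 2 these counts were 4 and 0. Wild-type tumor 1 had 11 of 14 skeletal muscle genes above background and wild-type tumor 2 had 5.

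The squamous genes were mostly dim in normal colon and bright in the deficient tumors. Above background on the normal arrays were 12 and 9 of the 37 genes in wild-type and 11 and 9 in deficient mice. In wild-type tumors the counts were 24 on replicate 1 and 8 on replicate 2, and in deficient tumors 31 and 32. The wild-type pair was therefore split, with replicate 1 between the normal arrays and the deficient tumors and replicate 2 among the normal arrays. Of the 37 genes, 24 were higher on wild-type tumor 1 than on each of the 4 normal arrays, and 3 were on wild-type tumor 2. The same count was 29 on deficient tumor 1 and 33 on deficient tumor 2. A total of 22 genes were above background on no normal array, and 14 of them were above background on both deficient tumors. Bulk tissue cannot tell more cells of a type from more RNA in each cell.

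**Figure D1:**
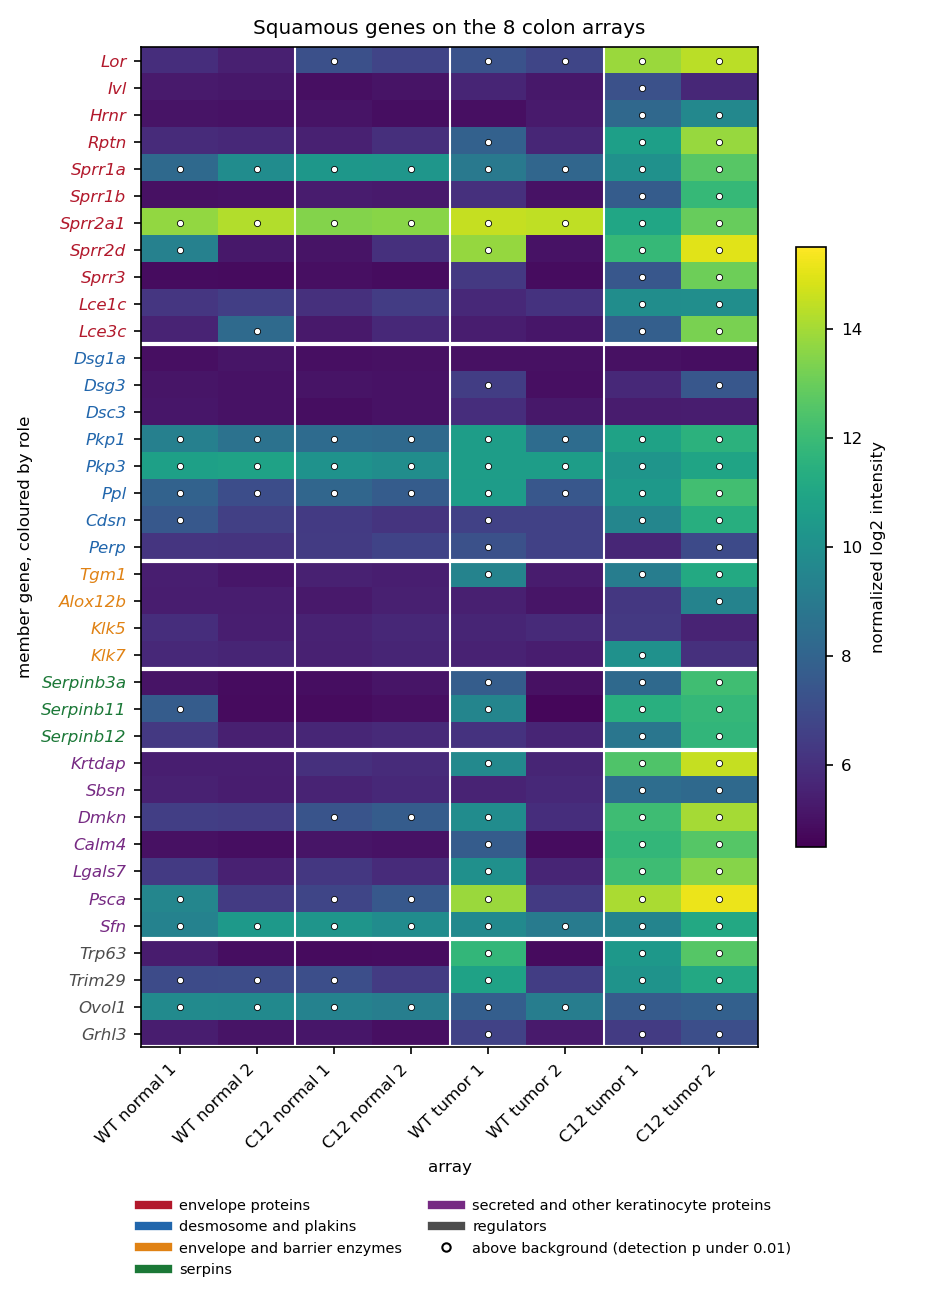
Normalized log2 intensity (colour) of the 37 genes with a probe (rows, grouped by role) on the 8 arrays (columns). WT stands for wild type and C12 for caspase-12 deficient, and white dots mark values above background. The last columns, the deficient tumors, hold 31 and 32 genes above background, and of the wild-type tumors replicate 1 holds 24 and replicate 2 holds 8.

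Most genes fell into 3 patterns by the tumors in which they were seen. A total of 14 were above background on both deficient tumors and on wild-type tumor 1 but not on wild-type tumor 2. These were Rptn, Sprr2d, Cdsn, Tgm1, Serpinb3a, Serpinb11, Krtdap, Dmkn, Calm4, Lgals7, Psca, Trp63, Trim29 and Grhl3. A further 7 were above background on both deficient tumors and on neither wild-type tumor, namely Hrnr, Sprr1b, Sprr3, Lce1c, Lce3c, Serpinb12 and Sbsn, 5 of them envelope proteins. The 8 genes above background on all 4 tumor arrays were Lor, Sprr1a, Sprr2a1, Pkp1, Pkp3, Ppl, Sfn and Ovol1.

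Of the 4 regulators, Trp63 and Grhl3 rose in deficient tumors over deficient normal colon, Trim29 missed the threshold and Ovol1 fell. Of all 13327 probes tested, 8.69% rose and 10.6% fell in that comparison, and the counts for each role below stand against these shares. Trp63 encodes p63, the transcription factor that maintains basal cells of stratified epithelium. It read 5.34 and 4.90 in normal colon and 11.77 and 4.84 in tumors of wild-type mice, and 4.82 and 4.87 in normal colon and 10.36 and 12.60 in tumors of deficient mice. The gene was thus at background on every normal array and on wild-type tumor 2, and well above it on wild-type tumor 1 and both deficient tumors. In deficient mice tumor exceeded normal colon by 6.63 log2 units (SE 1.89, limma adjusted p = 0.0464), at least 25.7-fold. The call was kept in 2 of 8 fits that left out 1 array.

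Trim29, a tripartite motif protein of basal keratinocytes, read 7.00 and 7.04 in normal colon and 10.83 and 6.48 in tumors of wild-type mice, and 7.13 and 6.41 in normal colon and 10.15 and 11.16 in tumors of deficient mice. It was bright on the same 3 tumor arrays as Trp63. The deficient difference was 3.88 (SE 1.18, adjusted p = 0.0567) by this probe and 3.67 (SE 0.84, adjusted p = 0.0223) by a second, dimmer probe, which passed. In a limma fit of the compared groups alone, without the wild-type arrays, the first probe passed as well (SE 0.44, adjusted p = 0.0105). Grhl3, a grainyhead-like factor needed to form the skin barrier, read 5.40 and 5.10 in normal colon and 6.67 and 5.30 in tumors of wild-type mice, and 5.15 and 4.95 in normal colon and 6.43 and 7.16 in tumors of deficient mice. Its rise of 1.75 (SE 0.45, adjusted p = 0.0349) started from below background and ended just above it, so no fold is given. The call was kept in 3 of 8 fits that left out 1 array.

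Ovol1, a zinc finger repressor known from epidermal differentiation, went the other way. It read 9.78 and 9.70 in normal colon and 7.80 and 9.16 in tumors of wild-type mice, and 9.39 and 9.19 in normal colon and 7.64 and 7.87 in tumors of deficient mice. Both deficient tumors lay below both deficient normal arrays, and both wild-type tumors below both wild-type normal arrays. In deficient mice it fell by 1.53 (SE 0.41, limma adjusted p = 0.0383), and the call was kept in 2 of 8 fits that left out 1 array. In wild-type mice the difference was −1.26 (SE 0.41, adjusted p = 0.509).

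All 11 envelope proteins with a probe lie on mouse chromosome 3, where the epidermal differentiation complex places loricrin, involucrin, repetin, hornerin, the Sprr genes and the Lce genes next to each other. Because several moved together, the stretch just before their start sites is shown. The 250 bases upstream of the first listed start site were available for 28 of the 41 genes, from RefSeq on GRCm38.p6. The start listed for Sprr2a1 may lie inside the gene, so its window is counted but may not be upstream sequence. Both strands were searched for 13 motifs. TGANTCA, the letters bound by AP-1 factors, occurred in 12 of the 28 windows and in 6.87% of 27025 windows of all genes. TATAAA, the TATA box letters, occurred in 12 of 28 and in 13% of all. Both occurred together in 9 of 28 and in 1.32% of all. GCCNNNGGC, bound by AP-2 factors, occurred in 2 of 28 against 13.6%, and CACCC, bound by KLF factors, in 17 of 28 against 51.3%. Its longer form GGGTGTGG occurred in 2 against 3.19%. CCTGAG, given no factor here, occurred in 14 of 28 against 21.8%. The ETS letters GGAAGT occurred in 9 of 28 against 20.0% and ACAGGAAG in 1 against 2.79%, and the C/EBP letters TTNNGCAA in 5 against 9.55%. The p53 family motif occurred in a loose form in 15 of 28 against 63.3% and in a strict form in 1 against 0.315%. The grainyhead letters ACCGGT occurred in 0 of 28 against 1.83%, and AACCGGTT, which holds them, in 0 against 0.122%. A match is a run of letters and not a measured site. Of the 9 genes with both motifs, Flg had no probe and Ivl was above background on 1 array. Serpinb12 and Sprr1a were seen on both deficient tumors but are not printed. Whether the motifs go with the rise in tumors was not tested. The following 5 windows belong to the remaining genes, seen on both deficient tumors, printed on the strand of the gene with the matches in capitals. They are those of Lor (chr3:92083143-92083392, minus strand), Sprr1b (chr3:92438780-92439029, minus strand), Sprr2d (chr3:92338890-92339139, plus strand), Rptn (chr3:93393449-93393698, plus strand) and Krtdap (chr7:30787655-30787904, plus strand).
Lor: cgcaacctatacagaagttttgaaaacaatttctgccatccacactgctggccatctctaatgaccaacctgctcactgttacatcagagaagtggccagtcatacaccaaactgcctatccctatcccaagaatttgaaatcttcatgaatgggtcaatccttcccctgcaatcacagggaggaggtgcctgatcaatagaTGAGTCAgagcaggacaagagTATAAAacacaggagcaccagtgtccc
Sprr1b: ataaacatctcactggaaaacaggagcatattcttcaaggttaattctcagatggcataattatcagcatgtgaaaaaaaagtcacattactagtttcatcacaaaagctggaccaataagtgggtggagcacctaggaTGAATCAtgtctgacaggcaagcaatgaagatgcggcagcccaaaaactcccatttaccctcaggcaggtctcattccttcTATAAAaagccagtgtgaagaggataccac
Sprr2d: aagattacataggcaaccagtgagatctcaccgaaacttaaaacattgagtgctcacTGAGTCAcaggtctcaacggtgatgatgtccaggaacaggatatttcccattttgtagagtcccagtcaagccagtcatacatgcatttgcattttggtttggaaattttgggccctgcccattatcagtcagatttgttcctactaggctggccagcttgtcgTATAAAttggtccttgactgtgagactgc
Rptn: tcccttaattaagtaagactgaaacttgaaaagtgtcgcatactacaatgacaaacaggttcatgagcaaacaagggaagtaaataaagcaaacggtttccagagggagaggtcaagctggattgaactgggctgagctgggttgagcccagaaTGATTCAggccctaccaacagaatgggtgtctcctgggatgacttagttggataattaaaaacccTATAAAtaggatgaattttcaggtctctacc
Krtdap: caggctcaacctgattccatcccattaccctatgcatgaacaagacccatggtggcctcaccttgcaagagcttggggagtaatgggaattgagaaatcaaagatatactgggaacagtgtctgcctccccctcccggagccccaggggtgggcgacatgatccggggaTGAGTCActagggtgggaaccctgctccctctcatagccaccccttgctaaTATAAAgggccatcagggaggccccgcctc
In each window the TATAAA letters stand near the 3′ end, next to the start site, and the TGANTCA letters stand further upstream.

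Of the 10 envelope proteins tested, 6 rose and none fell in deficient tumors over deficient normal colon, with a median difference of 4.76 log2 units (Lor, Hrnr, Rptn, Sprr1b, Sprr3 and Lce1c). Lor encodes loricrin, the main protein of the envelope of skin. It read 5.96 and 5.48 in normal colon and 7.27 and 6.80 in tumors of wild-type mice, and 7.17 and 6.77 in normal colon and 13.86 and 14.34 in tumors of deficient mice. Both deficient tumors stood far above the other 6 arrays, and their values lay close together. The deficient difference was 7.13 (SE 0.31, limma adjusted p = 0.000346), 140.0-fold, with 1 of the 2 deficient normal arrays above background. In wild-type mice tumor minus normal colon was 1.31 (SE 0.31, adjusted p = 0.342), at least 1.15-fold, without overlap.

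Sprr2d, a small proline-rich protein that bridges other envelope proteins, read 9.32 and 5.20 in normal colon and 13.78 and 5.05 in tumors of wild-type mice, and 5.06 and 6.04 in normal colon and 11.86 and 15.01 in tumors of deficient mice. It was bright on wild-type tumor 1 and both deficient tumors, faint on wild-type normal 1, and at background elsewhere. The deficient tumors were at least 99.6-fold above deficient normal colon, but the difference of 7.89 did not pass (SE 2.63, adjusted p = 0.0745). In a limma fit of the compared groups alone, without the wild-type arrays, it passed (SE 1.05, adjusted p = 0.0143). Sprr2a1, a close relative, was bright everywhere and read 13.72 and 14.25 in normal colon and 14.54 and 14.46 in tumors of wild-type mice, and 13.44 and 13.54 in normal colon and 11.02 and 12.93 in tumors of deficient mice. Both deficient tumors were below all 6 other arrays. Deficient tumors were lower than wild-type tumors by 2.53 (SE 0.55, adjusted p = 0.0213), and a second probe gave −2.78 (SE 0.48, adjusted p = 0.0108). Against deficient normal colon the first probe gave −1.51 (adjusted p = 0.0940) and the second −2.04 (adjusted p = 0.0247), so here the probes differed in the call. The Sprr2 genes are near-identical copies, and whether a probe tells them apart was not tested. The same holds for the Lce1 and Serpinb3 families.

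Rptn encodes repetin, a filaggrin-like envelope precursor, and read 5.85 and 5.76 in normal colon and 7.92 and 5.70 in tumors of wild-type mice, and 5.52 and 5.98 in normal colon and 10.69 and 13.80 in tumors of deficient mice. It rose at least 43.5-fold in deficient tumors over normal colon (6.49, SE 1.01, limma adjusted p = 0.00602), and its second probe gave 5.81 (adjusted p = 0.00803). Sprr3 and Sprr1b, further proline-rich proteins, were above background on the deficient tumors alone. Sprr3 read 7.47 on replicate 1 and 13.06 on replicate 2, and Sprr1b read 7.72 and 11.88. Both were far brighter on replicate 2. Sprr3 rose at least 11-fold (adjusted p = 0.0445) and Sprr1b at least 8.01-fold (adjusted p = 0.0303). Sprr3 kept its call in 0 of 6 fits that left out 1 array and Sprr1b in 3 of 6.

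Hrnr and Lce1c are shown in full because of their interaction result below, and were chosen after their values were seen. Hrnr, or hornerin, another filaggrin-like precursor, read 5.10 and 5.02 in normal colon and 4.97 and 5.28 in tumors of wild-type mice, and 5.10 and 4.91 in normal colon and 8.21 and 9.64 in tumors of deficient mice. Lce1c, a late envelope protein, read 6.26 and 6.52 in normal colon and 5.75 and 6.12 in tumors of wild-type mice, and 6.04 and 6.46 in normal colon and 9.88 and 9.93 in tumors of deficient mice. For both genes the 6 other arrays were below background and the deficient tumors stood clear of them. Lce1c differed by only 0.06 between the deficient tumors. Its rise over deficient normal colon was at least 8.62-fold (3.65, SE 0.25, limma adjusted p = 0.000499), and that of Hrnr was at least 4.38-fold (3.92, SE 0.43, adjusted p = 0.00164).

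The other envelope proteins were less even. Lce3c was above background on wild-type normal 2 at 8.31 and on the deficient tumors at 7.84 and 13.27, and did not pass in deficient mice (5.04, SE 1.58, adjusted p = 0.0627). Sprr1a, which was above background on all 8 arrays, ranged from 8.12 on wild-type tumor 2 to 12.63 on deficient tumor 2 and did not pass (1.07, SE 0.82, adjusted p = 0.397). Ivl, or involucrin, an early scaffold protein of the envelope, was above background only on deficient tumor 1 at 7.23 and was not tested.

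Of 6 desmosome proteins and plakins tested in deficient mice, Pkp1, Ppl and Cdsn rose and none fell, with a median difference of 2.24 log2 units. Cdsn, or corneodesmosin, which glues cornified cells together, read 7.51 and 6.58 in normal colon and 6.63 and 6.64 in tumors of wild-type mice, and 6.38 and 6.16 in normal colon and 9.55 and 11.39 in tumors of deficient mice. It was the member of this group with the greatest rise, at least 12.7-fold (4.20, SE 0.57, limma adjusted p = 0.00364), and both wild-type tumors stayed at the level of normal colon. A dimmer second probe gave 2.07 (adjusted p = 0.0322).

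Ppl, or periplakin, which links the envelope to intermediate filaments, read 7.98 and 7.09 in normal colon and 10.58 and 7.50 in tumors of wild-type mice, and 8.15 and 7.70 in normal colon and 10.44 and 12.17 in tumors of deficient mice. Pkp1, or plakophilin 1, a desmosomal plaque protein, read 9.27 and 8.64 in normal colon and 10.63 and 8.39 in tumors of wild-type mice, and 8.34 and 8.25 in normal colon and 10.84 and 11.56 in tumors of deficient mice. Both were above background on all 8 arrays and brightest on wild-type tumor 1 and the deficient tumors. Ppl rose 10.4-fold in deficient mice (adjusted p = 0.0472) and Pkp1 7.49-fold (adjusted p = 0.0218). Pkp1 kept its call in 5 of 8 fits that left out 1 array and Ppl in 3 of 8. Ppl also lost it with a replicate block, with trend and robust variance settings, without a filter on dim probes and with the mean of its probes. A second Ppl probe gave 0.68 (adjusted p = 0.177) and did not pass. Pkp3, or plakophilin 3, which simple epithelium also uses, read 10.77 and 10.83 in normal colon and 10.63 and 10.63 in tumors of wild-type mice, and 10.09 and 9.89 in normal colon and 10.22 and 10.94 in tumors of deficient mice. Its deficient difference of 0.60 did not pass (SE 0.28, adjusted p = 0.171).

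Among the desmosomal cadherins, the proteins that span the gap between cells, Dsg1a and Dsc3 were above background on no array. Dsg3 was above background on wild-type tumor 1 at 6.51 and on deficient tumor 2 at 7.48, and did not pass in deficient mice (1.58, SE 0.62, adjusted p = 0.119). Perp, a membrane protein of desmosomes, was above background on the same arrays at 7.24 and 6.96, and its difference was −0.23 (SE 0.42, adjusted p = 0.735).

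Of the 4 enzymes 1 could be tested. Tgm1, the membrane-bound transglutaminase that cross-links the envelope, read 5.44 and 5.16 in normal colon and 9.43 and 5.32 in tumors of wild-type mice, and 5.52 and 5.44 in normal colon and 9.17 and 11.19 in tumors of deficient mice. It followed Trp63 in being bright on wild-type tumor 1 and both deficient tumors. In deficient mice it rose at least 10.4-fold over normal colon (4.70, SE 1.20, limma adjusted p = 0.0325), and the call was kept in 3 of 8 fits that left out 1 array.

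The other 3 enzymes were seen on at most 1 array. Klk7, a protease of skin shedding, read 10.06 on deficient tumor 1 and 6.01 on deficient tumor 2, with all other arrays between 5.39 and 5.75. Alox12b, a lipoxygenase of the lipid barrier, read 6.28 on deficient tumor 1 and 9.44 on deficient tumor 2, where alone it was above background. These 2 genes were thus bright on opposite replicates. Klk5, a second shedding protease, read between 5.44 and 6.31 and was above background on no array.

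All 3 clade B serpins, intracellular protease inhibitors of squamous cells, rose in deficient mice. Serpinb3a read 5.07 and 4.85 in normal colon and 7.73 and 4.99 in tumors of wild-type mice, and 4.91 and 5.12 in normal colon and 8.25 and 12.11 in tumors of deficient mice. Serpinb11 read 7.69 and 4.83 in normal colon and 9.50 and 4.69 in tumors of wild-type mice, and 4.82 and 4.93 in normal colon and 11.45 and 11.82 in tumors of deficient mice. Serpinb12 read 6.31 and 5.48 in normal colon and 6.09 and 5.64 in tumors of wild-type mice, and 5.70 and 5.81 in normal colon and 8.80 and 11.72 in tumors of deficient mice. Serpinb3a and Serpinb11 were seen on wild-type tumor 1, and Serpinb12 on neither wild-type tumor. The rises were at least 10.4-fold for Serpinb3a (adjusted p = 0.0264), 28.7-fold for Serpinb11 (adjusted p = 0.0185) and 11-fold for Serpinb12 (adjusted p = 0.0102) by limma. Serpinb3a and Serpinb11 kept their calls in 5 of 8 fits that left out 1 array and Serpinb12 in 4 of 6. A second Serpinb3a probe was above background on deficient tumor 2 alone and was not tested, and a second Serpinb12 probe gave 4.29 (adjusted p = 0.0125).

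Of the 7 secreted and other keratinocyte proteins, 6 rose in deficient mice and Sfn did not pass. Psca, a small surface protein of the Ly6 family that several epithelia make, read 9.57 and 6.41 in normal colon and 13.85 and 6.35 in tumors of wild-type mice, and 6.78 and 7.52 in normal colon and 14.09 and 15.18 in tumors of deficient mice. Its spread within each wild-type pair was wide. In deficient mice it rose 179-fold (7.48, SE 2.13, limma adjusted p = 0.0465), a call kept in 2 of 8 fits that left out 1 array. Krtdap, a secreted protein of differentiating keratinocytes, read 5.44 and 5.44 in normal colon and 9.66 and 5.62 in tumors of wild-type mice, and 6.02 and 5.86 in normal colon and 12.46 and 14.52 in tumors of deficient mice. It rose at least 104-fold (7.55, SE 1.18, adjusted p = 0.00611).

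Dmkn, or dermokine, is secreted by keratinocytes and its gene lies beside Krtdap and Sbsn on chromosome 7. It read 6.55 and 6.46 in normal colon and 9.85 and 5.96 in tumors of wild-type mice, and 7.37 and 7.68 in normal colon and 12.09 and 14.01 in tumors of deficient mice. It rose 46.0-fold (5.52, SE 1.14, limma adjusted p = 0.0157). Of its 2 further probes 1 gave 5.50 (adjusted p = 0.0160) and the other 0.58 (adjusted p = 0.262). Sbsn, or suprabasin, the neighbour of both, read 5.50 and 5.37 in normal colon and 5.60 and 5.77 in tumors of wild-type mice, and 5.60 and 5.78 in normal colon and 8.43 and 8.24 in tumors of deficient mice, and is shown after its values were seen. Unlike Dmkn and Krtdap it was at background on wild-type tumor 1, and it was even between the deficient tumors. It rose at least 2.90-fold (2.64, SE 0.21, adjusted p = 0.000745).

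Lgals7, or galectin 7, a lectin of stratified epithelium, read 6.36 and 5.52 in normal colon and 10.01 and 5.63 in tumors of wild-type mice, and 6.28 and 5.84 in normal colon and 12.10 and 13.52 in tumors of deficient mice. It rose at least 64.6-fold (6.75, SE 1.22, limma adjusted p = 0.0103). Calm4, a calmodulin-like protein of epidermis shown after its values were seen, read 4.98 and 4.90 in normal colon and 7.72 and 4.86 in tumors of wild-type mice, and 5.13 and 5.02 in normal colon and 11.77 and 12.60 in tumors of deficient mice. It was bright on both deficient tumors and also above background, at a much lower level, on wild-type tumor 1. It rose at least 41.8-fold (7.11, SE 0.79, adjusted p = 0.00177). Sfn, or stratifin, a 14-3-3 protein that colon also makes, was above background on all 8 arrays, from 9.09 to 11.16, with a deficient difference of 0.28 (SE 0.58, adjusted p = 0.765).

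**Figure D2:**
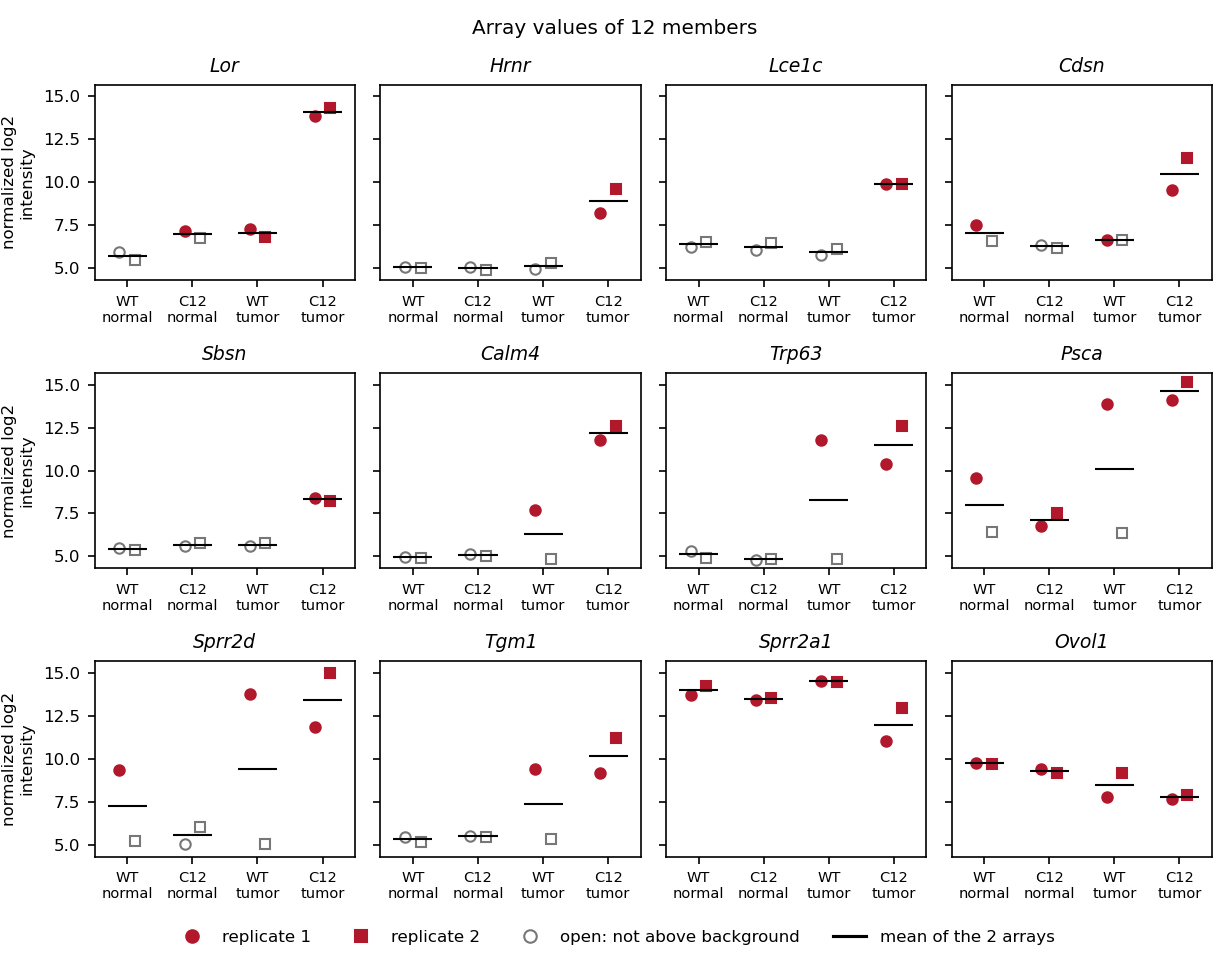
Normalized log2 intensity (vertical axis) of 12 genes in the 4 groups, with circles for replicate 1, squares for replicate 2, open symbols for values not above background and bars for the mean of 2 arrays. Lor, Hrnr, Lce1c, Cdsn, Sbsn and Calm4 stand high in the deficient tumors alone or nearly so, Trp63, Psca, Sprr2d and Tgm1 are also high on wild-type tumor 1, and Sprr2a1 and Ovol1 are lower in deficient tumors than in normal colon.

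Counted over the 31 tested genes, the comparison of deficient tumors with deficient normal colon gave 21 rises and 1 fall at a limma adjusted p under 0.05. Of all probes, 8.69% rose and 10.6% fell. The median difference of the 31 genes was 4.49 log2 units, against −0.02 over all probes. Both tumor arrays lay above both normal arrays for 26 genes, against 30.2% of all probes, and below them for 2, against 33.6%. The count of rises was 6 without deficient normal 1, 7 without deficient normal 2, 7 without deficient tumor 2 and 14 without deficient tumor 1. Lor, Cdsn and Calm4 kept their call in all 8 fits that left out 1 array. Hrnr, Lce1c and Sbsn kept theirs in the 6 fits that tested them. Without either deficient tumor these genes fell to the filter, so the dependence of their calls on a single deficient tumor was not tested. Markers of other cells moved with this comparison and their part in it was not tested: 6 of 6 tested neutrophil genes rose, and 9 of 15 colon epithelium genes fell while Krt18 rose.

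In wild-type mice limma called none of the 31 genes in tumors against normal colon, and none of the 13327 probes did, which is 0.0% in each direction. At an unadjusted p under 0.05 there were 2 genes, Lor and Ovol1, and 8.67% of all probes. The median difference was 0.74. Both tumor arrays lay above both normal arrays for 5 genes, against 22.4% of probes, and below for 4, against 23.3%. The spread between the wild-type tumors was wide, since 30 of the 37 genes were higher on replicate 1, with a median of 0.84 log2 units. Without wild-type tumor 2, Trp63 (6.66), Trim29 (3.81) and Calm4 (2.80) were called higher and Ovol1 lower (−1.94), each with adjusted p = 0.0481. In that fit the group is a single array, assumed to vary like the others.

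**Figure D3:**
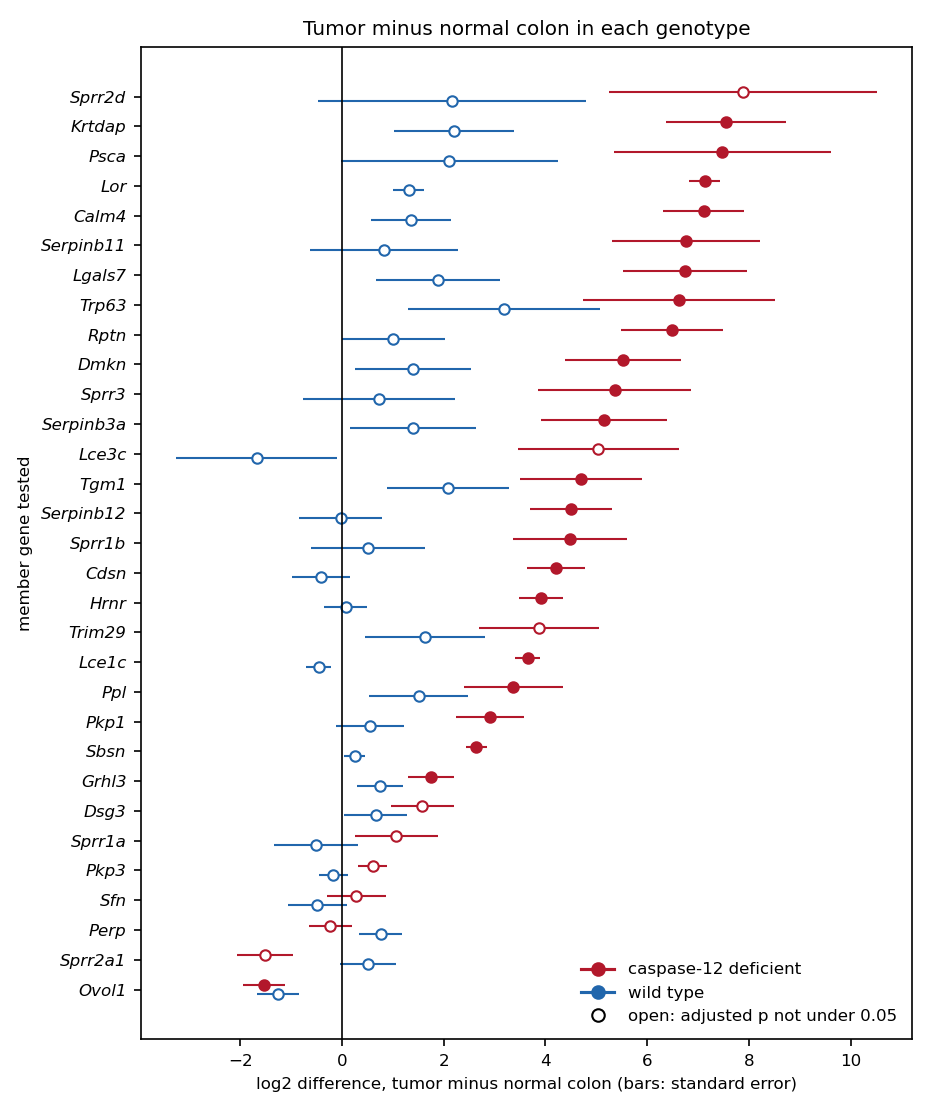
Log2 difference of tumor minus normal colon (horizontal axis) for the 31 genes tested (rows), in red for deficient and blue for wild-type mice, with standard errors as bars and open symbols where the adjusted p was not under 0.05. In deficient mice 22 genes have filled symbols, Ovol1 on the negative side, and in wild-type mice none has.

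Deficient tumors were also set directly against wild-type tumors, a comparison that shares its deficient tumor arrays with that of deficient mice. Of the 31 genes 12 were higher and Sprr2a1 was lower by limma, against 7.59% and 10.9% of all probes. The 12 were Lor, Hrnr, Rptn, Sprr1b, Lce1c, Cdsn, Serpinb12, Krtdap, Sbsn, Dmkn, Calm4 and Lgals7. Lor was higher by 7.06 (SE 0.31, adjusted p = 0.000209), Calm4 by 5.89 (SE 0.79, adjusted p = 0.00551), Krtdap by 5.86 (SE 1.18, adjusted p = 0.0174) and Rptn by 5.43 (SE 1.01, adjusted p = 0.0137). The median was 3.82 against −0.03 over all probes, and both deficient tumors lay above both wild-type tumors for 19 genes, against 28.0% of probes. Lor, Cdsn and Calm4 kept their call in all 8 fits that left out 1 array, Sprr1b in 0 of 6 and Lgals7 in 3 of 8. Hrnr, Lce1c and Sbsn kept theirs in the 6 fits that tested them, but were not tested without either deficient tumor. Of the marker lists of other cells, 5 of 6 tested neutrophil genes were higher and 10 of 15 colon epithelium genes lower in deficient than in wild-type tumors, and their part in the result was not tested.

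None of the 4 regulators passed this comparison. Trp63 differed by 3.17 (SE 1.89, adjusted p = 0.277), Trim29 by 2.00 (SE 1.18, adjusted p = 0.274), Grhl3 by 0.81 (SE 0.45, adjusted p = 0.251) and Ovol1 by −0.73 (SE 0.41, adjusted p = 0.251). Tgm1 (2.80, adjusted p = 0.143), Psca (4.53, adjusted p = 0.176) and Sprr2d (4.02, adjusted p = 0.319) did not pass either. In all 4 regulators, Tgm1 and Sprr2d the arrays of the groups overlapped. The number of genes called higher was 19 without wild-type tumor 1, 7 without wild-type tumor 2 and 4 without deficient tumor 2. Sprr2a1 kept its call in 6 of 8 fits that left out 1 array.

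Between the genotypes, none of the 31 genes passed in normal colon by limma. Of all probes 1.01% were higher and 1.19% lower in deficient mice. The median difference was −0.05, and 2 genes had an unadjusted p under 0.05, as did 17.7% of all probes. These were Lor, higher by 1.25 in deficient colon (SE 0.31, adjusted p = 0.0906), and Pkp3, lower with a difference of −0.82 (SE 0.28, adjusted p = 0.181). Array weights gave Lor an adjusted p of 0.0466 at the same difference. Deficient normal colon exceeded wild-type normal colon without overlap for 8 genes, against 28.5% of probes, and lay below it for 6, against 26.5%.

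The test of whether the tumor difference itself depended on genotype called 6 genes, all with a positive interaction, against 1.56% of all probes in that direction and 2.37% in the other. Lor had an interaction of 5.82 log2 units (SE 0.43, limma adjusted p = 0.00442), Cdsn of 4.61 (SE 0.80, adjusted p = 0.0290) and Calm4 of 5.76 (SE 1.12, adjusted p = 0.0386). The remaining calls were Lce1c at 4.11 (SE 0.36, adjusted p = 0.00464), Sbsn at 2.39 (SE 0.30, adjusted p = 0.0117) and Hrnr at 3.86 (SE 0.60, adjusted p = 0.0216). These 3 genes entered the test through the deficient tumors alone, and their other 6 arrays were below background, so their interactions and p-values are a description and no support for a dependence on genotype. Calm4 had wild-type tumor 1 as its only other array above background and passed the filter only with a deficient tumor. Its interaction and p-value are therefore a description as well. Calm4 was below background on all 4 normal arrays and Lor on both wild-type normal arrays, so the fitted sizes of these genes are not measured folds either. Over the fits that left out 1 array and tested the gene, the call was kept in 8 of 8 for Lor, 6 of 6 for Lce1c, 3 of 6 for Sbsn, 3 of 8 for Calm4, 2 of 8 for Cdsn and 0 of 6 for Hrnr. The interaction was also positive at the threshold for 5 of 6 tested neutrophil genes and negative for 2 of 15 colon epithelium genes, whose part in the result was not tested. Trp63 had an interaction of 3.45 (SE 2.67, adjusted p = 0.516) and Tgm1 of 2.62 (SE 1.69, adjusted p = 0.429). The count was 12 without wild-type tumor 1, 4 without wild-type tumor 2, 4 without deficient tumor 1 and 3 without deficient tumor 2. It was 2, 3, 2 and 2 without wild-type normal 1 and 2 and deficient normal 1 and 2.

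The deficient tumors also differed from each other. Of the 34 genes above background on at least 1 of them, 31 were higher on replicate 2 and 3 on replicate 1. Over the 37 genes the median difference, replicate 2 minus replicate 1, was 1.43 log2 units, against 0.00 over all probes tested. It reached 5.59 for Sprr3 and −4.05 for Klk7. The highest single value of a gene fell on deficient tumor 2 for 28 genes, on deficient tumor 1 for 4 and on another array for 5. Deficient tumor 1 was also the library with skeletal muscle and hair genes, and the part these tissues had in its values was not tested.

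**Figure D4:**
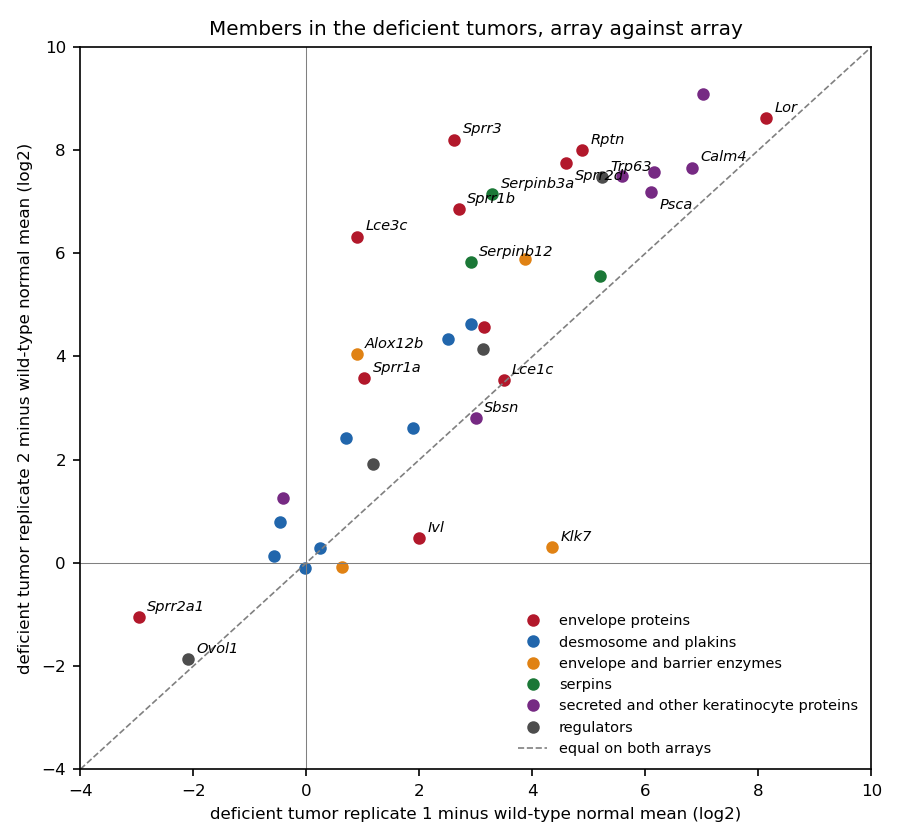
Log2 difference from the wild-type normal mean on deficient tumor 1 (horizontal axis) and deficient tumor 2 (vertical axis) for the 37 genes, coloured by role, with a dashed line where both arrays are equal. Most points lie above the line, Klk7 and Ivl lie below it, Lor, Lce1c and Sbsn lie near it, and Sprr2a1 and Ovol1 are negative on both axes.

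Further genes of the same programme were read from lists made with earlier results of these data known. The shares of all probes given above stand beside each count, with 8.69% higher and 10.6% lower in deficient tumors over normal colon. Of 48 other cornification genes with a probe, 30 were tested, and in deficient tumors over normal colon 21 rose and none fell, with a median of 3.95. Named for the highest single-array values of their probes were Cnfn, or cornifelin, an envelope protein; Lce3b, another late envelope protein; and Ly6d, a surface protein of squamous cells. Cnfn rose at least 42.0-fold (adjusted p = 0.0270) and Ly6d by 5.94 (limma adjusted p = 0.00325), and Lce3b did not pass (5.57, adjusted p = 0.0640). Against wild-type tumors 14 were higher in deficient tumors and 2 lower, beside 7.59% and 10.9% of all probes, and the interaction called 9, all positive, beside 1.56% of all probes.

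In that list 3 genes were lower by genotype, with less signal in normal colon of deficient mice, and are named after their values were seen. Tgm3, the transglutaminase of hair follicle and upper epidermis, read 12.04 and 10.99 in normal colon and 10.73 and 12.07 in tumors of wild-type mice, and 5.11 and 4.86 in normal colon and 5.24 and 5.75 in tumors of deficient mice. All 4 deficient arrays were thus low and all 4 wild-type arrays high, whatever the tissue. The genotype difference was −6.53 in normal colon (limma adjusted p = 0.00165) and −5.91 in tumors (adjusted p = 0.00158). Casp14, the caspase of cornifying keratinocytes, read 9.74 and 8.03 in normal colon and 11.07 and 11.07 in tumors of wild-type mice, and 4.80 and 4.91 in normal colon and 9.11 and 8.98 in tumors of deficient mice. It was lower by genotype in normal colon (−4.03, adjusted p = 0.00835) and in tumors (−2.02, adjusted p = 0.0283), yet rose between deficient normal colon and tumors (4.19, adjusted p = 0.00202). S100a14, a calcium-binding protein, was −2.16 in normal colon (adjusted p = 0.0195). Tgm3 and Casp14 thus had high values in wild-type normal colon, unlike most of the 37 genes.

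Other layers of the programme moved in part. Of 10 barrier lipid genes tested in deficient mice 3 rose (Elovl4, Cyp4f39 and Lipk) and 1 fell (Sptlc2), with a median of 0.19. The 1 fall among 10 was close to the share of all probes that fell. Elovl4, which lengthens very long fatty acids, rose by 3.90 (adjusted p = 0.00876). Of the 2 others named for their highest single-array values, Asah1 differed by 0.14 (adjusted p = 0.726) and Ugcg by 0.09 (adjusted p = 0.840). Against wild-type tumors Elovl4, Cyp4f39 and Abhd5 were higher and Sptlc2 lower, and the interaction called Cyp4f39.

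Of 12 genes for adhesion of basal keratinocytes 3 rose and 1 fell in deficient mice, with a median of 1.27, and here too the falls were near the share of all probes. The rises were those of Lamb3 (1.18, adjusted p = 0.0270) and Itgb4 (1.49, adjusted p = 0.0413), which anchor cells to the basement membrane, and of Jup (1.86, adjusted p = 0.0248), the desmosomal plakoglobin. The fall was that of Dst, by 1.5 (limma adjusted p = 0.0330). Plec differed by 0.47 (adjusted p = 0.460). Dsg2 was lower in deficient than in wild-type tumors (−1.60, adjusted p = 0.0160), and the interaction called 0 with 2 at an unadjusted p under 0.05.

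Of 11 further epidermal regulators 3 rose in deficient mice, with a median of 1.44. They were Zfp750 (2.77, limma adjusted p = 0.00608), Tfap2a (2.07, adjusted p = 0.0234) and Tfap2c (3.40, adjusted p = 0.0246), transcription factors of epidermis. In normal colon Zfp750 was lower in deficient mice (−2.48, adjusted p = 0.0347). Klf4, which gut epithelium also uses, was lower in deficient than in wild-type tumors (−1.71, adjusted p = 0.0259). Esrp1 (−0.18, adjusted p = 0.677) and Ovol2 (−0.93, adjusted p = 0.0846) did not pass in deficient mice.

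Squamous keratins, the filaments inside these cells, were seen on the same arrays. Of 14 tested 7 rose in deficient mice and none fell, with a median of 5.33. Krt14, a basal keratin, read 10.79 and 8.33 in normal colon and 15.91 and 9.37 in tumors of wild-type mice, and 8.21 and 8.81 in normal colon and 14.89 and 16.01 in tumors of deficient mice, and rose by 6.94 (limma adjusted p = 0.0371). Krt13, of mucosal squamous epithelium, differed by 8.04 (adjusted p = 0.0537) and Krt6b by 6.86 (adjusted p = 0.0654), and neither passed. Against wild-type tumors Krt1 (2.90, adjusted p = 0.00302) and Krt10 (2.54, adjusted p = 0.0138), keratins of cornifying cells, were higher, and the interaction called Krt1 (2.86, adjusted p = 0.0177). In wild-type mice no gene of any of these lists passed limma in tumors against normal colon, where 3 cornification genes, 1 adhesion gene and 1 keratin had an unadjusted p under 0.05.

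The summed levels of the lists, in normalized intensity units over 1 probe per gene, differed between libraries of the same group. The 37 genes summed to between 17700 and 26800 on the normal arrays, 70500 and 27500 on wild-type tumors and 75200 and 240000 on deficient tumors. Squamous keratins summed to between 2270 and 4460 on normal arrays, 97700 and 3190 on wild-type tumors and 68600 and 157000 on deficient tumors. Both lists were therefore lowest on wild-type tumor 2 among the tumors and highest on deficient tumor 2. A sum is carried by its brightest probes, so the medians are given as well. The median difference of the 37 genes from the wild-type normal mean was 1.06 log2 units on wild-type tumor 1, −0.11 on wild-type tumor 2, 2.90 on deficient tumor 1 and 4.34 on deficient tumor 2. For the keratins it was 3.04, −0.01, 3.48 and 3.66 on the same arrays.

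Markers of other tissues differed from the squamous genes in some lists and not in others. Colon epithelium markers summed to between 264000 and 401000 on normal arrays, 281000 and 337000 on wild-type tumors and 147000 and 155000 on deficient tumors. Skeletal muscle genes summed to 162000 on deficient tumor 1, 7270 on wild-type tumor 1 and between 1190 and 2230 on the other 6 arrays. Hair and melanocyte genes summed to 6740 on deficient tumor 1 and between 609 and 743 elsewhere. Neutrophil genes summed to 111000 and 115000 on deficient tumors, 39200 and 1690 on wild-type tumors and between 768 and 9710 on normal arrays. On wild-type tumor 1 the neutrophil sum rested mostly on Ltf, at 15.14. S100a8 read 10.71 there, below its 11.70 and 11.85 in wild-type normal colon. The median difference of the neutrophil list from the wild-type normal mean was −0.13 on wild-type tumor 1 and −0.76 on wild-type tumor 2. It was 3.15 and 2.88 on deficient tumors. As a list, neutrophil genes were thus high on both deficient tumors but not on wild-type tumor 1. Stomach and esophagus genes summed to 3600 on wild-type tumor 1, 10700 and 5510 on deficient tumors and between 754 and 1710 elsewhere. These higher sums rested mostly on Sox21, which read 11.51 on wild-type tumor 1 and 13.16 and 12.01 on deficient tumors. The median difference of the list from the wild-type normal mean was 0.01 on wild-type tumor 1 and 0.05 and −0.10 on deficient tumors, so the list as a whole stayed near that mean. No gene of the muscle list or of the hair and melanocyte list passed in deficient mice (0 of 12 and 0 of 1 tested, with 2 and 0 at an unadjusted p under 0.05 in limma). The test could hardly call them, because of the deficient tumors only replicate 1 was bright for these lists. The filter on dim probes also left 1 hair gene. The lack of calls therefore does not show that these tissues were alike in the groups. Of 7 sebaceous and sweat gland genes with a probe, 1 or 2 were above background on each array. Of 12 stomach and esophagus genes between 1 and 5 were, and all 3 tested (Tff1, Krt84 and Sox21) rose in deficient mice. Krt84, a keratin left out of the hair list here, rose by 4.58 (limma adjusted p = 0.000398) and read 9.89 and 9.85 on the deficient tumors. The part of these cells in the results was not tested. On wild-type tumor 1, 24 of the 37 squamous and 11 of 14 muscle genes were above background, and on deficient tumor 1 these counts were 31 and 12. On deficient tumor 2 they were 32 and 4, and on wild-type tumor 2 they were 8 and 5.

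**Figure D5:**
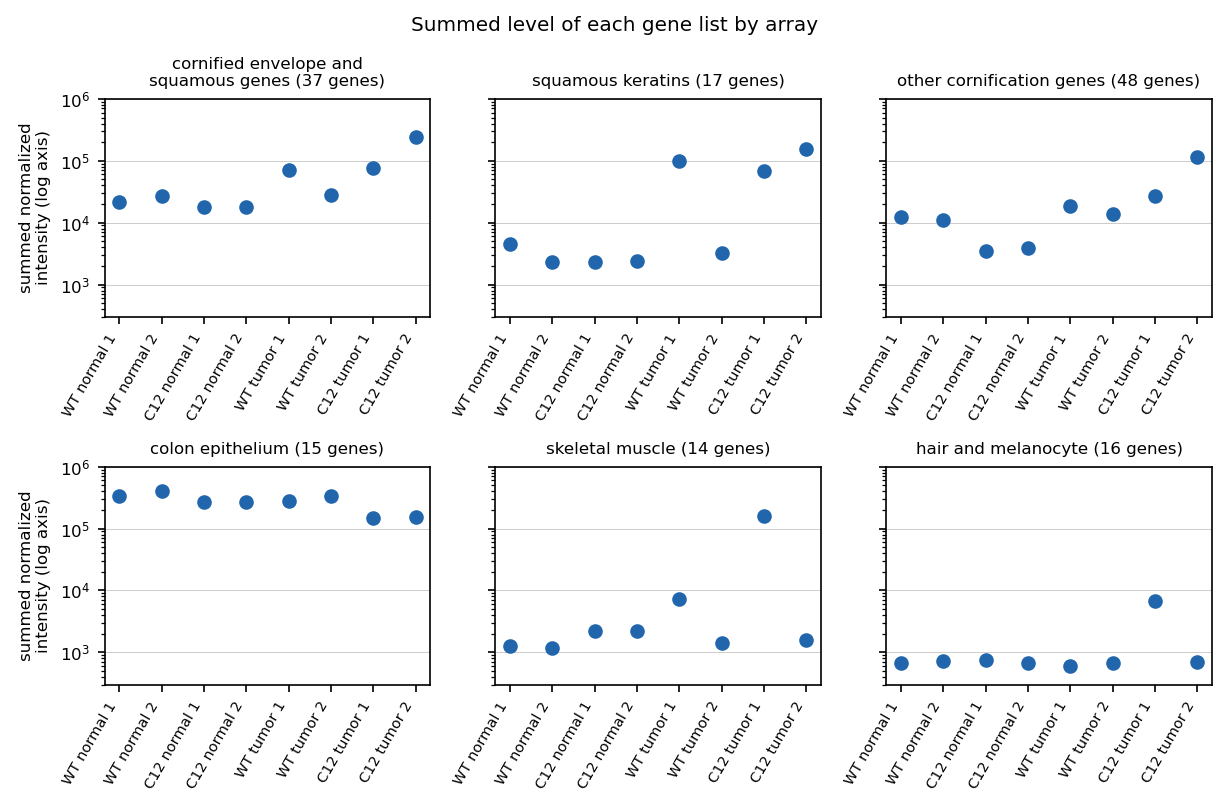
Summed normalized intensity (vertical log axis) of 6 gene lists on the 8 arrays, 1 point per array. The 37 squamous genes and the squamous keratins are high on wild-type tumor 1 and both deficient tumors. Other cornification genes are highest on the deficient tumors (27000 and 113000). On wild-type tumors they sum to 18900 and 13700, and in wild-type normal colon to 12500 and 11100. Colon epithelium markers are lowest on the deficient tumors, and skeletal muscle and hair genes are highest on deficient tumor 1.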

How the data were processed

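Per the labels, Cy3-labelled total RNA was hybridized to Illumina arrays. The authors deposited non-normalized intensity values, with the detection p-value of each probe beside them, per the file headers. The submitters' processing notes name BeadStudio 3.2.7. The deposited series table held log2 values. They matched the log2 of the intensity over its array mean to within 1.7e-05 and served as an alternative only. The members and lists were chosen with earlier results of these data known.

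Intensities were background corrected (normexp, negative controls estimated from the detection p-values, offset 16), quantile normalized and put on a log2 scale with limma 3.58.1 under R 4.3.3. A probe entered the test if 2 or more of the 8 arrays gave it a detection p below 0.01, which left 13327. A limma model of the 4 group means, with 4 residual and 3.56 prior degrees of freedom, gave the 5 comparisons. P-values are two-sided and adjusted by Benjamini-Hochberg over all probes, with a threshold of 0.05. The fit was tested on simulated data. "At least" marks a fold whose dimmer group was above background on no array. That group was then set, per array, to the lowest value above background or the probe's own value, whichever was higher. The number of arrays limits the precision.

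All genes of the set are named. Array values are given in full for up to 4 genes of each role with the highest single-array value, and for other lists up to 3 such genes are named. Gene names came from the platform annotation, updated through RefSeq, with 23978 probes carrying 1 symbol and 1719 carrying none. The alternatives tried were array weights, other background, scaling and filter settings, the deposited values, other variance settings, the compared groups alone, a replicate block, the mean of a gene's probes, and each array left out in turn.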

Additional observations from a re-analysis of the deposited data

Results flagged for a closer look

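The limma interaction test called 6 genes, which is why they are listed here. The fitted interaction was 5.82 log2 units for Lor, 5.76 for Calm4 and 4.61 for Cdsn. It was 4.11 for Lce1c, 3.86 for Hrnr and 2.39 for Sbsn, which entered the test through the deficient tumors alone and were below background on the other 6 arrays, so their values are a description. Calm4 passed the filter only with a deficient tumor, since wild-type tumor 1 was its only other array above background, so its value is a description too. Calm4 was below background on all 4 normal arrays and Lor on both wild-type normal arrays, so no fitted size here is a measured fold or gives an order. With 1 array left out, Lor kept its call in 8 of 8 fits, Lce1c in 6 of 6, Sbsn in 3 of 6, Calm4 in 3 of 8, Cdsn in 2 of 8 and Hrnr in 0 of 6. Lce1c, Sbsn and Hrnr were not tested without either deficient tumor. For each of them both deficient tumors lay above the other 6 arrays. Without wild-type tumor 1 the interaction called 12 genes, and among those added were Trp63 (6.90, adjusted p = 0.0385), Psca (9.19, adjusted p = 0.0469) and Krtdap (7.43, adjusted p = 0.0253). Without wild-type tumor 2 it called 4. The groups of 2 arrays are too small to look for single outlying arrays.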

How the results depend on the processing

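With 2 arrays per group, the counts of called genes moved with the filter and with single arrays more than with background or scaling. In deficient tumors over normal colon (21 higher, 1 lower) the counts were 10 and 0 without a filter on dim probes, 2 higher with probes detected on all 8 arrays (7 genes tested), and 2 lower with the mean of a gene's probes. In deficient against wild-type tumors (12 higher, 1 lower) no gene was lower without a filter, 1 was higher with detection on all 8 arrays, and 6 were higher and 0 lower with the compared groups alone. The interaction (6 higher) gave 3 without a filter and 0 with detection on all 8 arrays. Array weights called 1 gene, Lor, higher in deficient normal colon. Leaving out 1 array gave 6 to 22 genes higher and 0 to 1 lower in deficient mice, 0 to 3 higher and 0 to 1 lower in wild-type mice, 4 to 19 higher and 0 to 1 lower between the tumors, and 2 to 12 higher and 0 to 1 lower in the interaction. A group left with 1 array was assumed to vary like the others. No difference of a called gene changed sign under the alternatives run. The causes of these moves were not tested, apart from the fewer genes tested. The replicate block gave 19 genes higher and 1 lower in deficient mice, 15 and 1 between tumors and 6 in the interaction. Replicate differences of the groups correlated between −0.031 and 0.161, so the numbers are not shown to pair the samples. The slide was not run as a block, because the headers give none. Dim probes limit what can be seen: 3 genes were above background on no array and 3 on 1 array.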
